A study of Mus musculus with 8 samples.

Results

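The genes described here encode the receptor chains of the interleukin 3 family of cytokines in mouse: the ligand-binding alpha chains Il3ra, Csf2ra and Il5ra and the beta chains Csf2rb and Csf2rb2. They were chosen by name, as every transcript annotated to one of these 5 symbols among 55487 genes, and the TPM (transcripts per 1000000) of each gene's transcripts were summed in each library. TPM is a length-scaled share of all transcripts, so levels of different genes can be set side by side on it. Of the 5 chains, 4 passed a filter of at least 1 TPM in at least 2 libraries and were tested, together with 12511 genes in all. Il5ra did not pass.

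RNA was sequenced from sorted mouse bone marrow cells of strain C57BL/6J in 4 groups of 2 libraries (biological duplicates, by the design text): Nfil3-depleted basophils, labelled floxed out and marked deficient in the plots, control basophils, Nfil3-depleted pre-Baso and control pre-Baso. Both populations were sorted as lineage-negative cells without CD34 and ckit and with CD200R3, basophils with intermediate and pre-Baso with high staining by MAR1, an antibody to the alpha chain of the IgE receptor. Controls were littermates labelled wild type. The labels name neither the Cre driver that removed the floxed Nfil3 gene nor the age of the animals. The comparisons ask how the receptor chains differ between basophils and pre-Baso, and whether they differ between cells depleted of the transcription factor Nfil3 and controls. Loss of Nfil3 cannot be told apart here from a Cre allele, which controls labelled wild type may lack, or from other differences between the genotypes.

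Each alpha chain binds 1 cytokine: Il3ra (also known as CD123) binds interleukin 3, Csf2ra binds granulocyte-macrophage colony-stimulating factor and Il5ra binds interleukin 5. The beta chain Csf2rb pairs with any of these alpha chains and carries the signal, through the kinase JAK2 and the transcription factor STAT5. Mice have a further beta chain, Csf2rb2, which pairs with Il3ra alone, and interleukin 3 is a growth and survival factor of basophils.

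Nfil3 was low in all 4 libraries labelled as depleted. It measured 0.853 and 1.32 TPM in depleted basophils, against 20.5 and 22.5 TPM in control basophils, and 0 and 0.624 TPM in depleted pre-Baso, against 6.61 and 7.65 TPM in control pre-Baso. The log2 difference of (TPM + 1), depleted minus control over both populations, was -3.05, with p = 0.0286 in a two-sided exact permutation test over 70 splits, the smallest p that 4 against 4 libraries allow. Libraries held 271.7 to 398 megabases of assigned sequence. Protein-coding genes took 18.7% to 22.4% of the TPM, which is scaled by length, and 52.9% to 57.2% of the assigned bases, with other transcript types holding the rest. The values used here are not read counts, so the depth in reads is unknown. Basophil markers were present in every library: the granule protease gene Prss34 measured 2667 to 9494 TPM in basophils and 18974 to 25020 TPM in pre-Baso. Mcpt8, another basophil protease, measured 1.98 to 6.04 TPM in the 4 depleted libraries, against 969 to 7888 TPM in the 4 control libraries. The genotypes thus differed in Mcpt8 as well as in Nfil3, and any effects of these differences on other genes cannot be told apart. Of 13 basophil markers tested, 2 were called higher and 3 lower in basophils than in pre-Baso of depleted cells (limma adjusted p under 0.05). In control cells 4 were called higher, Hdc and Il4 among them, and 4 lower, Prss34 and Mcpt8 among them. Among all genes tested, 6.79% were called higher and 4.11% lower in depleted cells, and 12.6% and 10% in control cells. Mast cell markers summed to 0.0335 to 3.09 TPM over the 7 of 8 listed genes found in the files, and Mcpt4, Tpsab1 and Mrgprb2 were listed at 0 in all 8 libraries.

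The beta chain genes are neighbours of closely similar sequence, and how far they differ decides how well their reads can be told apart. Csf2rb (ENSMUSG00000071713) lies on chromosome 15 from 78325752 to 78353847 on the plus strand and Csf2rb2 (ENSMUSG00000071714) on chromosome 15 from 78282507 to 78305721 on the minus strand, in GRCm38. Their coding sequences, of 2691 and 2637 bases in the GENCODE transcripts, were identical at 2506 of 2629 aligned columns without a gap, or 95.3%. The 120-base coding window with the most differences is shown first, with the 22 differing bases in capitals. The Csf2rb window spans exons 4 and 5 at chr15:78338898-78340471 on the plus strand and the Csf2rb2 window exons 4 and 5 at chr15:78292838-78294433 on the minus strand, both including the intron between the exons.
Csf2rb: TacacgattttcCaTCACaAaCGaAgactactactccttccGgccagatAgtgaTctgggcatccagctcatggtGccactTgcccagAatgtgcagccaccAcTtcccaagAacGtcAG
Csf2rb2: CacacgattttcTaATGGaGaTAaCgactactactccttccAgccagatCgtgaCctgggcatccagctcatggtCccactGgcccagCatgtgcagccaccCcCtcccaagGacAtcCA
A window in the last exon, at chr15:78348577-78348696 in Csf2rb and chr15:78284752-78284871 in Csf2rb2, was the same in both genes at all 120 bases, and a read from it cannot be assigned by its sequence.
Csf2rb and Csf2rb2: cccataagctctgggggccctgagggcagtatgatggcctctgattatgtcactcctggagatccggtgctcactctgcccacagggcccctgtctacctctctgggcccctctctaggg
Of the words of 50 bases in a full-length coding transcript of each gene, 894 of 4715 in Csf2rb (ENSMUST00000096355) and 912 of 4691 in Csf2rb2 (ENSMUST00000096356) also occurred in a transcript of another gene, the other beta chain among them, while exons 3, 9, 10 and 11 of both genes held none.

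The ligands of these receptors gave no signal. Il3, Csf2 and Il5, which encode the cytokines bound by the alpha chains, were each listed at 0 in all 8 libraries.

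Il3ra, the alpha chain for interleukin 3 (ENSMUSG00000068758, chromosome 14 from 14346275 to 14356011, plus strand), was abundant in every library. It measured 57.2 and 57.2 TPM in depleted basophils and 48.2 and 65.4 TPM in control basophils, against 71.6 and 69.9 TPM in depleted pre-Baso and 66.7 and 71.7 TPM in control pre-Baso. By TPM all 4 basophil libraries lay below all 4 pre-Baso libraries, at 65.4 against 66.7 TPM where they came closest. With TPM rescaled to protein-coding genes, the second control basophil library lay above the second control pre-Baso library. By TPM the genotypes overlapped within each population. The share of all tested genes whose libraries separate by population or by genotype was not counted. The log2 difference of (TPM + 1), basophil minus pre-Baso, was -0.30 ± 0.17 (SE) in depleted cells, with a 95% interval of -0.68 to 0.08, and -0.30 ± 0.17 in control cells, with an interval of -0.68 to 0.09. Neither passed (limma adjusted p = 0.276 and 0.24), which does not show equal levels. In control cells the difference was -0.08 without the first control basophil library and -0.51 without the second. Transcript ENSMUST00000224163 took 80.3% of Il3ra TPM in the first and 4.5% in the second, and 8.1% and 42.8% in the depleted basophil libraries, which were both at 57.2 TPM; the part of this assignment in the levels was not tested. Counted as its part of 1000000 assigned bases, which is not divided by a transcript's length, Il3ra had 166 and 166 in depleted basophils and 155 and 175 in control basophils, against 200 and 204 in depleted pre-Baso and 190 and 194 in control pre-Baso. On that scale the populations did not overlap, the genotypes overlapped in basophils, and both depleted pre-Baso libraries lay above both control ones. The log2 difference between populations was -0.28 ± 0.10 in depleted cells (adjusted p = 0.0927) and -0.22 ± 0.10 in control cells (adjusted p = 0.141), and that between genotypes in pre-Baso was 0.07 ± 0.10 (adjusted p = 0.977). Gm48860, annotated antisense to Il3ra, measured at most 0.211 TPM.

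Csf2ra, the alpha chain for granulocyte-macrophage colony-stimulating factor (ENSMUSG00000059326, chromosome 19 from 61223957 to 61228429, minus strand), was low and mostly assigned to transcripts without a coding frame. It measured 8.86 and 5.43 TPM in depleted basophils and 11.2 and 4.91 TPM in control basophils, against 4.31 and 5.8 TPM in depleted pre-Baso and 2.44 and 6.55 TPM in control pre-Baso. The groups overlapped in each comparison, and the replicates of 1 group differed by as much as the groups did. Transcripts annotated as retained intron took 85.3% to 100% of its TPM. ENSMUST00000235172 among them took 39.1% to 100% and overlaps both coding transcripts in position. How reads from the shared stretch were assigned was not tested. The 2 coding transcripts took 1.21 and 0 TPM in depleted basophils and 1.57 and 0.72 TPM in control basophils, against 0.256 and 0 TPM in depleted pre-Baso and 0 and 0.373 TPM in control pre-Baso. Basophil minus pre-Baso, the log2 difference of the gene was 0.41 ± 0.44 in depleted cells (interval -0.60 to 1.42) and 0.73 ± 0.44 in control cells (interval -0.28 to 1.74), neither called (limma adjusted p = 0.594 and 0.271).

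**Figure D1:**
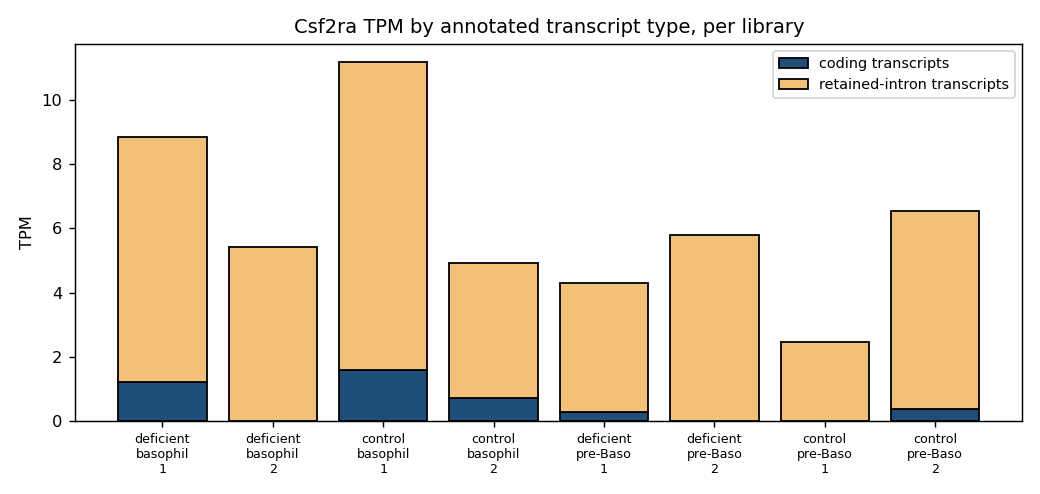
Csf2ra TPM (vertical axis) in each of the 8 libraries (horizontal axis, numbered 1 and 2 within each group), stacked by annotated transcript type. Coding transcripts reach at most 1.57 TPM and are listed at 0 in 3 libraries, while retained-intron transcripts make up the rest.

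Il5ra, the alpha chain for interleukin 5 (ENSMUSG00000005364, chromosome 6 from 106710357 to 106749037, minus strand), was near absent. It measured 0 and 0.0496 TPM in depleted basophils and 0.192 and 0 TPM in control basophils, and was listed at 0 in all 4 pre-Baso libraries. It stood above 0 in 2 of 8 libraries. The library with 0.192 TPM, the first control basophil library, also had the highest sum of eosinophil markers, at 2729 TPM. Il5ra is itself 1 of the 10 genes of that marker list, and the part of eosinophil RNA in its value was not tested.

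Csf2rb, the signalling beta chain shared by the 3 cytokines, was higher in basophils than in pre-Baso of both genotypes. It measured 188 and 204 TPM in depleted basophils and 228 and 223 TPM in control basophils, against 60.7 and 86.5 TPM in depleted pre-Baso and 74.5 and 93.3 TPM in control pre-Baso. Every basophil library exceeded every pre-Baso library by more than the spread within either population. Mean TPM was 2.67-fold higher in depleted basophils than in depleted pre-Baso (196 ± 11.3 and 73.6 ± 18.3 TPM, SD, n = 2 each) and 2.69-fold higher in control basophils than in control pre-Baso (226 ± 3.57 and 83.9 ± 13.3 TPM). The log2 differences of (TPM + 1) were 1.42 ± 0.19 (SE; limma adjusted p = 0.00577) and 1.43 ± 0.19 (adjusted p = 0.00187). In bulk RNA, more RNA per cell and a larger part of cells that express a gene cannot be told apart.

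Csf2rb2, the beta chain that pairs with Il3ra alone, was higher in basophils by a larger ratio. It measured 61.2 and 68.8 TPM in depleted basophils and 74.4 and 75.2 TPM in control basophils, against 16.4 and 22.3 TPM in depleted pre-Baso and 21.1 and 25 TPM in control pre-Baso. The lowest basophil library was above the highest pre-Baso library. Mean TPM was 3.36-fold higher in depleted basophils than in depleted pre-Baso and 3.24-fold higher in control basophils than in control pre-Baso, with log2 differences of 1.71 ± 0.18 (SE; limma adjusted p = 0.00469) and 1.66 ± 0.18 (adjusted p = 0.000839). Of the 4 tested chains, the 2 beta chains were thus called higher in each genotype, where 6.79% of all genes tested were called higher in depleted and 12.6% in control cells. No chain was called lower, where 4.11% of genes were in depleted and 10% in control cells, so that 10.9% and 22.6% were called in all.

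The calls in depleted cells rest in part on 1 library. Without the first depleted pre-Baso library, which had the lowest level of both beta chains, the log2 difference was 1.17 for Csf2rb (limma adjusted p = 0.0512) and 1.5 for Csf2rb2 (adjusted p = 0.0501), and 20 genes were called in all, against 1363 with it. Without the second depleted pre-Baso library 665 genes were called, without the first depleted basophil library 253 and without the second 693, and both beta chains were among the genes called in each of these. In control cells both beta chains were called whichever library was left out, with the count of called genes at 2832 over all libraries, 1397 without the first and 1810 without the second control pre-Baso library, and 1668 without the first control basophil library.

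**Figure D2:**
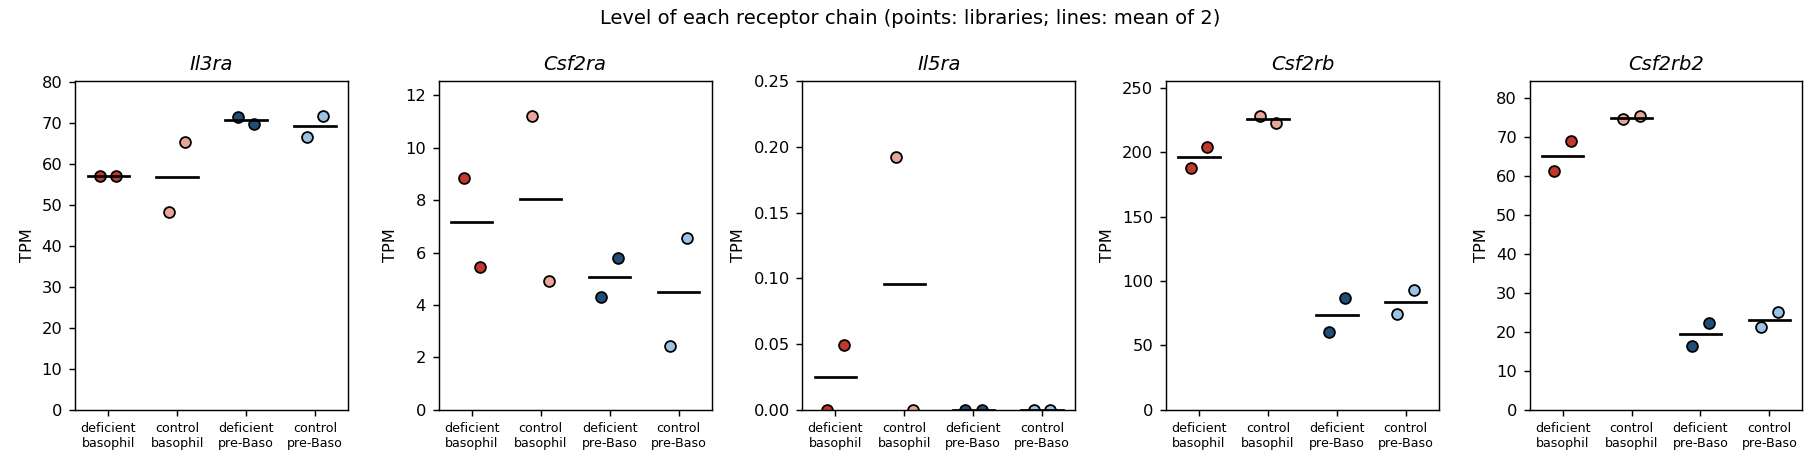
TPM (vertical axis, from 0, scaled per gene) of the 5 chains in the 4 groups, with 1 point per library and a line at the mean of 2. Csf2rb and Csf2rb2 lie higher in all 4 basophil libraries (188 to 228 and 61.2 to 75.2 TPM) than in all 4 pre-Baso libraries (60.7 to 93.3 and 16.4 to 25 TPM). Il3ra lies lower (48.2 to 65.4 against 66.7 to 71.7 TPM), a separation that did not hold with TPM rescaled to protein-coding genes.

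Exons without words shared between the beta chain genes gave the same direction. Over exons 3, 9, 10 and 11, mean coverage per 100 assigned megabases in basophils was 2.45 to 2.55 times that in pre-Baso for Csf2rb and 2.73 to 3.59 times for Csf2rb2, and the lowest basophil library exceeded the highest pre-Baso library in each of these exons. In exon 10, for example, Csf2rb coverage was 35.7 and 38.9 in depleted basophils and 43.5 and 41.8 in control basophils, against 13.9 and 14.9 in depleted pre-Baso and 17.8 and 16.2 in control pre-Baso. Csf2rb2 coverage in its exon 10 was 8.71 and 9.78 in depleted basophils and 8.6 and 8.82 in control basophils, against 2.12 and 3.67 in depleted pre-Baso and 2.79 and 3.21 in control pre-Baso. The populations did not overlap in any of exons 2 to 14 of either gene. Exon 1 was thinly covered, counting only transcripts with the same bounds of that exon. In Csf2rb it had 1.42 and 0 in depleted basophils and 1.76 and 0.855 in control basophils, against 0.0121 and 0.505 in depleted pre-Baso and 0 and 0.409 in control pre-Baso. The populations overlapped there. Transcript ENSMUST00000230264, whose start differs, was not counted in that exon. It took 90.2% of Csf2rb TPM in the second depleted basophil library. In the first depleted and first control pre-Baso libraries it took 88.9% and 94.6%. These libraries had the lowest exon 1 values, so exon 1 of Csf2rb does not compare the populations. In Csf2rb2 exon 1 had 2.41 to 3.79 in basophils and 0.288 to 0.65 in pre-Baso. Csf2rb reads were assigned almost entirely to transcript ENSMUST00000096355 in some libraries and to ENSMUST00000230264 in others, within the same group, so the split between these transcripts was not compared.

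**Figure D3:**
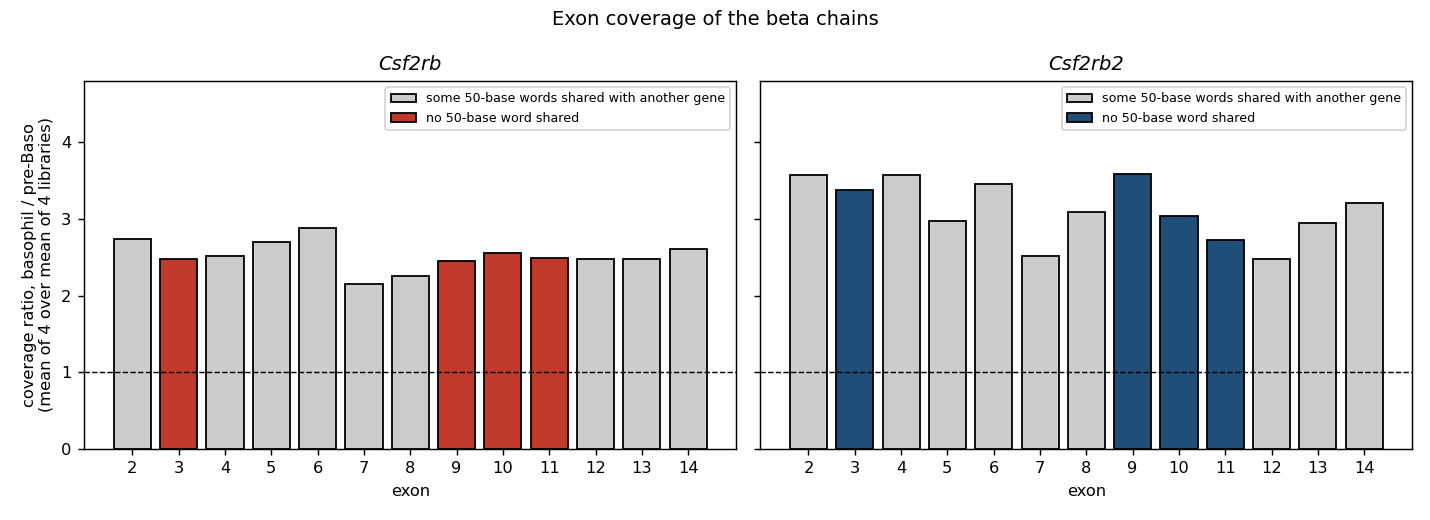
Ratio of mean coverage per assigned megabase, basophil over pre-Baso (vertical axis, 4 libraries each), in exons 2 to 14 of Csf2rb and Csf2rb2 (horizontal axis), with coloured bars for exons that share no 50-base word with another gene. Coloured bars lie at 2.45 to 2.55 in Csf2rb and 2.73 to 3.59 in Csf2rb2, above the dashed line of equal coverage.

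The proportions of the chains differed between the populations. Csf2rb2 was 24.5% and 25.2% of the TPM of both beta chains in depleted basophils and 24.6% and 25.2% in control basophils, against 21.2% and 20.5% in depleted pre-Baso and 22.1% and 21.2% in control pre-Baso. These TPM shares did not overlap between the populations, but they include stretches that are the same in both genes. In each of exons 3, 9, 10 and 11, which hold no shared word, the share in coverage overlapped between the populations. In exon 10, Csf2rb2 had 3.67 beside 14.9 for Csf2rb in the second depleted pre-Baso library. It had 8.6 beside 43.5 in the first control basophil library. How the assignment of reads enters the TPM shares was not tested. The summed TPM of both beta chains was 4.37 and 4.78 times that of Il3ra in depleted basophils and 6.28 and 4.56 times in control basophils, against 1.08 and 1.56 times in depleted pre-Baso and 1.43 and 1.65 times in control pre-Baso. By level, the order in basophils was Csf2rb (188 to 228 TPM), Csf2rb2 (61.2 to 75.2), Il3ra (48.2 to 65.4), Csf2ra (4.91 to 11.2) and Il5ra, with Csf2rb2 and Il3ra overlapping. In pre-Baso, Csf2rb (60.7 to 93.3 TPM) and Il3ra (66.7 to 71.7) overlapped and stood above Csf2rb2 (16.4 to 25), Csf2ra (2.44 to 6.55) and Il5ra. Shares and ratios are given per library as a description, with no test.

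No chain passed the threshold between genotypes. Of the 4 tested chains 0 were called in limma between genotypes, where 0.056% of genes were called in basophils, 0.0639% in pre-Baso and 0.0879% in the mean over both. At an unadjusted p under 0.05 there were 0 of the 4 chains, beside 1065 of 12511 genes in basophils, 548 in pre-Baso and 931 in the mean over both. Csf2rb was lower in both depleted basophil libraries (188 and 204 TPM) than in both control basophil libraries (228 and 223 TPM), with a log2 difference of -0.20 ± 0.19 (SE; 95% interval -0.63 to 0.23, adjusted p = 0.84). In pre-Baso the Csf2rb libraries overlapped, with a difference of -0.20 ± 0.19 (interval -0.63 to 0.23, adjusted p = 1). Csf2rb2 differed by -0.20 ± 0.18 in basophils (interval -0.62 to 0.21) without overlap, and by -0.25 ± 0.18 in pre-Baso (interval -0.67 to 0.16) with overlap. With 2 libraries a group a lack of overlap readily arises by chance. The share of all tested genes without overlap was not counted, so overlap is given as a description only. Over both populations the difference was -0.20 ± 0.13 for Csf2rb (interval -0.51 to 0.11) and -0.23 ± 0.13 for Csf2rb2 (interval -0.52 to 0.07). Il3ra differed by 0.03 in each population, with intervals of -0.36 to 0.41 in basophils and -0.35 to 0.41 in pre-Baso. For Csf2ra the intervals were wide, at -1.10 to 0.92 in basophils and -0.77 to 1.25 in pre-Baso.

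The genotype difference itself did not differ between the populations beyond its error. The interaction, the difference in basophils minus that in pre-Baso, was -0.00 ± 0.27 for Csf2rb (interval -0.61 to 0.61), 0.05 ± 0.26 for Csf2rb2 (interval -0.53 to 0.64), -0.01 ± 0.24 for Il3ra (interval -0.55 to 0.53) and -0.33 ± 0.62 for Csf2ra (interval -1.75 to 1.10). In limma 0 of 12511 genes passed this test, and 689 had an unadjusted p under 0.05.

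**Figure D4:**
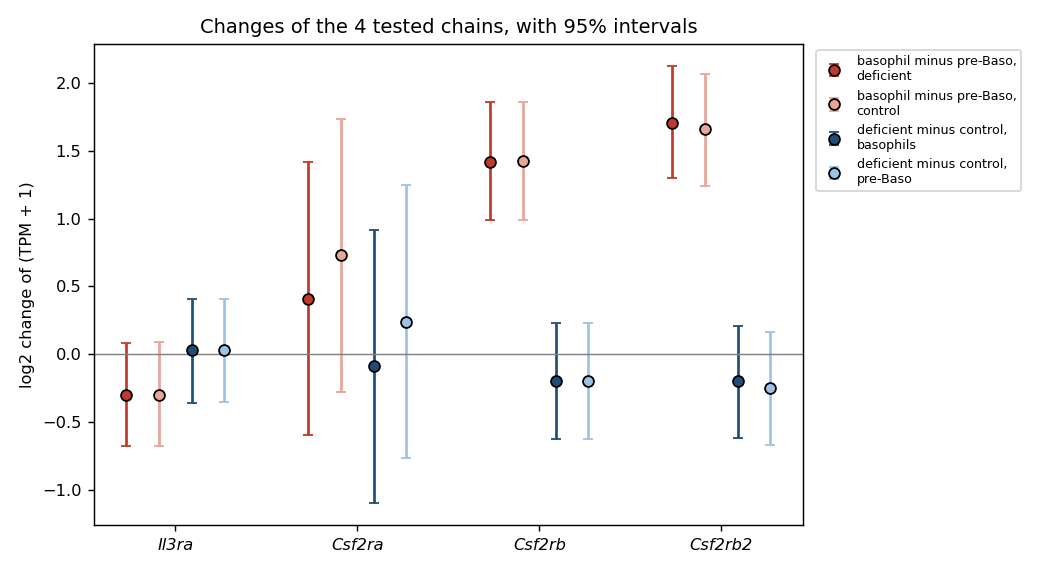
Log2 difference of (TPM + 1) (vertical axis) with its 95% interval for the 4 tested chains (horizontal axis), as basophil minus pre-Baso in depleted and control cells and as depleted minus control in basophils and pre-Baso. Csf2rb and Csf2rb2 lie above 0 between populations in both genotypes, at 1.42 to 1.71, while each interval between genotypes spans 0.

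Marker sums of several other cell types differed between the populations, while the eosinophil, B and plasma cell, and dendritic and plasmacytoid cell sums overlapped. Neutrophil markers (10 of 10 listed genes detected) summed to 2079 and 1271 TPM in depleted basophils and 2353 and 1347 TPM in control basophils, against 1143 and 832 TPM in depleted pre-Baso and 816 and 712 TPM in control pre-Baso. Monocyte and macrophage markers (12 of 12) summed to 60.4 to 186 TPM in basophils and 22.3 to 35.3 TPM in pre-Baso, with defining markers such as Csf1r at 1.36 to 7.72 TPM in basophils and 0.603 to 0.851 TPM in pre-Baso. Of 10 tested neutrophil markers, 4 were called higher in basophils of depleted and 7 of control cells. Of 8 tested monocyte and macrophage markers, 1 and 3 were. Among all genes tested, 6.79% and 12.6% were called higher. Neutrophils and monocytes are also known to express beta chains. The eosinophil sum (10 of 10) was 249 and 91.9 TPM in depleted basophils and 2729 and 104 TPM in control basophils, against 51.8 to 134 TPM in pre-Baso. Though the sums overlapped, 9 of 9 tested eosinophil markers had positive differences in each genotype, and 3 (Siglecf, Ccr3 and Alox15) were called higher in both. How many of the called neutrophil, monocyte and eosinophil markers passed the filter through basophil libraries only was not counted. The first control basophil library stood apart in that list, mostly through the granule gene Prg2 at 2354 TPM, and exceeded the second in neutrophil and monocyte sums. Csf2rb measured 228 and 223 TPM in these 2 libraries, and without the first the log2 difference in control cells was 1.41 for Csf2rb and 1.67 for Csf2rb2. The second library, at neutrophil and monocyte sums of 1347 and 60.4 TPM, also exceeded both control pre-Baso libraries in these sums. Leaving out the first therefore cannot separate the part of these cells. Markers of granulocyte progenitors (8 of 8) summed to 488 and 754 TPM in depleted basophils and 202 and 149 TPM in control basophils, against 2275 and 1817 TPM in depleted pre-Baso and 1215 and 1281 TPM in control pre-Baso. Of the 7 genes of that list tested, Mpo, Ctsg and Ms4a3 were called lower in basophils of both genotypes. Among all genes tested, 4.11% were called lower in depleted and 10% in control cells. Elane, Prtn3, Cd34 and Fcnb were called in neither genotype, and Fcnb went the other way, at 0.88 ± 0.30 in depleted and 0.15 ± 0.30 in control cells. Erythroid and megakaryocyte markers (10 of 10) summed to 203 to 244 TPM in basophils and 88.5 to 180 TPM in pre-Baso. Of 7 tested, 4 globin genes were called higher in control cells, where 12.6% of all genes were, and 0 in depleted cells. The T and NK cell sum was 53.8 to 76.6 TPM in basophils and 129 to 186 TPM in pre-Baso. Nkg7, the only gene of that list that passed the filter, was called lower in basophils (-1.22 ± 0.22, limma adjusted p = 0.0148, in depleted and -1.50 ± 0.22, adjusted p = 0.00278, in control cells). Trac, Klrb1c, Ncr1 and Gzma were listed at 0 in all 8 libraries. The sum of B and plasma cell markers was 59.1 and 24.3 TPM in depleted basophils and 144 and 26.6 TPM in control basophils, against 15.2 to 30.3 TPM in pre-Baso. Dendritic and plasmacytoid cell markers summed to 32.3 to 37.9 TPM in basophils and 26.7 to 34 TPM in pre-Baso. The part of other cell types in the beta chain differences was not tested.

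Genes with a pattern across the 8 libraries like that of each chain were ranked by Pearson's r of log2(TPM + 1) among 4083 tested genes averaging 5 TPM or more. All 8 libraries share the split into populations, so the values describe likeness and carry no test. Csf2rb was nearest to Csf2rb2 (r = 0.998), followed by Akna, Map4k4 and Ncf1 (each 0.996). Csf2rb2 was nearest to Arrdc4, Csf2rb and Emilin2 (each 0.998), and then Map4k4 (0.997). Nearest to Il3ra were Pold2 (0.946), Nudt14 (0.945), Mrpl13 (0.933) and Thy1 (0.926), and nearest to Csf2ra were Mapkapk5 (0.940), Haghl (0.931), Setd2 (0.922) and Ifi27l2a (0.911).

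Promoters of the members were read from RefSeq windows of GRCm38.p6, from 250 bases before to 50 after the start that RefSeq gives. Of the 5 chains 4 had a window; Csf2rb had none. The Csf2rb2 window is shown because that gene changed with the population, with GATAAG, a core recognised by GATA factors, in capitals. The window is chr15:78305672-78305971 on the minus strand, and its start is that of the gene in the files.
Csf2rb2: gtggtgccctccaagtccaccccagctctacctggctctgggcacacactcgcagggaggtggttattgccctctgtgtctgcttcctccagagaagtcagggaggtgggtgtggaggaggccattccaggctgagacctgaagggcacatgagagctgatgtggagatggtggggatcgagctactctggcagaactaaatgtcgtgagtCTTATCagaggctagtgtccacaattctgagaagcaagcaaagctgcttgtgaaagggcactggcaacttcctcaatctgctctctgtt
Motifs were searched on both strands. In Csf2rb2 the GATAAG match lay on the minus strand of the window 39 bases upstream of the start. GATAAG occurs in 7.44% of 32851 windows. The Csf2rb2 window also held 1 match to TTCNNNGAA, the STAT core (8.3% of windows), and 2 to GAGGAAG, bound by PU.1 (13.6%), and the Csf2ra window held 2 overlapping matches to GAGGAAG. For Il3ra the RefSeq start lies 220 bases inside the gene as the files annotate it, so most of its window lies within that gene. It held 1 match to TTGCNNAA, of the C/EBP type (10.8%). TTATGTAA and TTACGTAA, which NFIL3 binds, were in 0 of these 4 windows and in 0.938% and 0.119% of all windows, and TGTGGT, the RUNX core, in 0 of 4 and 16.8%.

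Genes that act with these chains were taken from 6 lists. Between basophils and pre-Baso, 849 of 12511 genes were called higher and 514 lower in depleted cells, and 1576 higher and 1256 lower in control cells, and the median log2 difference of all tested genes was 0.10 and 0.08. In depleted cells 0 genes of these lists were called without the first depleted pre-Baso library, so the counts for depleted cells below rest on it. In control cells 18 of the 33 called genes of the lists were called whichever library was left out: Il7r, Jak2, Syk, Gab2, Sos2, Pik3cd, Ptprc, Pim1, Bcl2, Mcl1, Osm, Ccnd2, Id2, Hdc, Il4, Spi1, Runx2 and Nfil3. Between genotypes, Nfil3 was the only gene of the 6 lists called in any of the genotype comparisons, with a log2 difference of -2.67 in pre-Baso (limma adjusted p = 0.00896) and -3.44 in basophils (adjusted p = 0.00151). Nfil3 is the gene removed by design and passed the filter through the control libraries, so its calls are no independent support. Without either control pre-Baso library the pre-Baso difference was -2.76 and -2.58 and lost its call (adjusted p = 0.154 and 0.128).

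Among other receptors of the type I cytokine family, 9 of 26 listed chains were tested; 1 was called higher in depleted cells and 2 in control cells, with none lower and medians of 0.24 and 0.44. Il7r, the alpha chain for interleukin 7, measured 14.5 and 11.4 TPM in depleted basophils and 21.1 and 26.1 TPM in control basophils, against 3.15 and 3.83 TPM in depleted pre-Baso and 2.76 and 3.67 TPM in control pre-Baso. Its log2 difference was 1.63 ± 0.20 in depleted cells (limma adjusted p = 0.00508) and 2.55 ± 0.20 in control cells (adjusted p = 0.000384). Csf3r, the granulocyte colony-stimulating factor receptor, which neutrophils also express, was the other chain called in control cells. It passed the filter through basophil libraries only, so its call is no independent support. Crlf2, a chain of the receptor for thymic stromal lymphopoietin, measured 50.9 to 72.6 TPM in basophils and 60.4 to 80.6 TPM in pre-Baso and was not called. Il2rg, the common gamma chain, measured 27.2 to 33.6 TPM in basophils and 22.3 to 30.8 TPM in pre-Baso and was not called.

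Of 10 tested JAK and STAT genes, 2 were called higher in depleted and 3 in control cells, with none lower and medians of 0.69 and 0.54. Jak2, the kinase bound to the beta chain, measured 26.5 and 28 TPM in depleted basophils and 36.7 and 36.9 TPM in control basophils, against 13.1 and 16.8 TPM in depleted pre-Baso and 13.1 and 17 TPM in control pre-Baso. All 4 basophil libraries were above all 4 pre-Baso libraries, with log2 differences of 0.84 ± 0.18 (limma adjusted p = 0.0274) and 1.25 ± 0.18 (adjusted p = 0.00276). Stat5b, a transcription factor that the receptor activates, was called in depleted cells (0.72 ± 0.19, adjusted p = 0.0438) and had 0.54 ± 0.19 in control cells (adjusted p = 0.07). Its partner Stat5a had 0.49 ± 0.20 and 0.53 ± 0.20 and was called in neither. Jak1 (0.73 ± 0.19, adjusted p = 0.0253) and Stat6 (1.04 ± 0.23, adjusted p = 0.0146) were called in control cells.

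Of 30 tested Src family and adaptor genes, 7 were called higher in depleted and 9 in control cells and none lower, with medians of 0.31 and 0.39. Among the genes called in both genotypes were Fes and Btk, cytoplasmic kinases, Syk, a kinase that couples immune receptors to calcium signals, Gab2, a scaffold that binds a phosphatase, and Pik3cd, a catalytic subunit of phosphoinositide 3-kinase. Their differences in control cells were 0.86 for Fes, 0.93 for Btk, 0.93 for Syk, 1.24 for Gab2 and 1.02 for Pik3cd. The call of Fes in depleted cells (0.67 ± 0.18, adjusted p = 0.0471) was lost with a replicate block (adjusted p = 0.0678). Lyn, a Src family kinase, was called in depleted cells (0.82 ± 0.21, adjusted p = 0.0446) and had 0.63 ± 0.21 in control cells (adjusted p = 0.0685), with an interaction of 0.20 ± 0.30 (adjusted p = 0.985). Fyn, Tec and Sos2 were called in control cells.

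Of 19 tested negative regulators, which are given as a description because several passed the filter through basophil libraries only, 3 were called higher in depleted cells and 5 in control cells and none lower, with medians of 0.46 and 0.38. Socs3, a suppressor of JAK signalling, measured 1.68 and 0.866 TPM in depleted basophils and 1.31 and 1.09 TPM in control basophils, against 0.0737 and 0 TPM in depleted pre-Baso and 0.194 and 0.283 TPM in control pre-Baso. It reached 1 TPM in basophil libraries only and so had to be higher there, and its test is not given. The same holds for Cish, an inducible inhibitor of STAT5 signalling, and Socs2 in control cells, so that 3 of the 5 calls in control cells and 1 of the 3 in depleted cells are of this kind. The other genes called were Inpp5d and Ptprc in control cells and Socs1 and Ptprc in depleted cells. Ptprc, the phosphatase CD45, had 1.26 ± 0.18 in control cells (limma adjusted p = 0.00249) and 0.68 ± 0.18 in depleted cells, where its call was lost with a replicate block (adjusted p = 0.0613). These SOCS family genes lie near 1 TPM, where the log2(TPM + 1) scale understates a ratio.

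Of 17 tested targets of STAT5 signalling, 8 were called higher and 1 lower in depleted cells, and 9 higher and 1 lower in control cells, with medians of 0.66 and 0.84. Pim1, a kinase that cytokines induce, measured 45.3 and 43 TPM in depleted basophils and 52 and 41 TPM in control basophils, against 11.7 and 16 TPM in depleted pre-Baso and 17 and 17.4 TPM in control pre-Baso. The basophil libraries were all above the pre-Baso libraries, with log2 differences of 1.62 ± 0.19 (limma adjusted p = 0.0047) and 1.37 ± 0.19 (adjusted p = 0.00222). Osm, encoding oncostatin M, Myc and Ccnd2, a cyclin of the G1 phase, were called higher in both genotypes, as were Mcl1, a survival protein, Id2, Hdc, which makes histamine, and Il4. Bcl2, another survival gene, was the member that fell, by 0.89 on the log2 scale in depleted cells and by 1.44 in control cells. Hdc and Il4 are also effector genes of basophils, and the list does not measure STAT5 activity.

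Of 15 tested transcription factors known at these genes or in basophils, 2 were called higher in depleted cells, and 3 higher and 1 lower in control cells, with medians of 0.44 and 0.19. Spi1, which encodes PU.1, measured 93 and 93.6 TPM in depleted basophils and 107 and 104 TPM in control basophils, against 48.1 and 48.1 TPM in depleted pre-Baso and 45.7 and 52.9 TPM in control pre-Baso. Its log2 difference was 0.94 ± 0.13 (limma adjusted p = 0.0077) and 1.08 ± 0.13 (adjusted p = 0.00143). Runx2, a RUNX family factor, was called in both genotypes (1.64 ± 0.25 and 1.60 ± 0.25). Nfil3 itself was called higher in control basophils than in control pre-Baso (1.47 ± 0.25, adjusted p = 0.00506), and Cebpb was called lower in control cells (-0.93 ± 0.24, adjusted p = 0.0286). Gata2, a factor central to basophils, measured 224 to 334 TPM in basophils and 169 to 246 TPM in pre-Baso, and Gata1 17.5 to 23.2 TPM in basophils and 17.8 to 24.2 TPM in pre-Baso, and neither was called.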

How the data were processed

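RNA of 8 libraries was measured by sequencing, after SMARTER mRNA library preparation per the labels' protocols. Per the submitters' processing notes, HISAT2, of a version not given in the sources used here, was run with the mm10 build. Transcripts were quantified by StringTie 2.1.4 with Ensembl release 101 annotation in its mode for annotated transcripts, per the file headers, and the authors deposited coverage, FPKM and TPM per transcript, with no read counts and no stated strand option. It is therefore unknown whether reads of a gene and of its antisense partner were told apart by strand.

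TPM was summed per gene; Il5ra lines without coverage carry the name in another field, which was also read. Genes reaching 1 TPM in 2 or more libraries entered the fit on log2(TPM + 1) in limma 3.58.1 in R 4.3.3, with 1 mean per group over all 8 libraries and variance moderation. Benjamini-Hochberg adjustment ran over all 12511 genes within each of 6 contrasts, calls were made below an adjusted p of 0.05, and adjusted p-values are from limma. The fit was tested on simulated data. Assigned bases are coverage times length. Shared words were counted over GENCODE M21 transcripts, and transcript types were matched by identifier. Alternatives were other scalings, FPKM, pseudocounts, filters, robust moderation, fewer groups, a replicate block, leaving out each library, and, chosen after seeing the data, assigned bases per 1000000.

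Members and lists were chosen with earlier results of these data known. The genes named are the 5 chains, Nfil3, the ligands, called genes of the lists with those of smallest adjusted p, the 4 genes most like each chain, and markers. Crlf2, Il2rg, Stat5a, Gata1 and Gata2 were named after their values were seen. Protein sequences were not used here, and not every called gene of the lists is reported here. Same-numbered replicates had correlations of their deviations of -0.0544 to 0.202, so the numbers were not taken to pair the libraries. With 2 libraries a group, limma p-values rest only on the spread between these libraries, pooled over the groups and moderated across genes.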

Additional observations from a re-analysis of the deposited data

How the results depend on the processing

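Of 76 values for the beta chains between basophils and pre-Baso under the alternatives, 74 kept their direction and their call, and the 2 that lost the call both left out the first depleted pre-Baso library. A filter, robust moderation or leaving out a library of the other genotype cannot move a difference, only its error. Such values are among the 74. Leaving out 1 library at a time gave log2 differences of 1.17 to 1.68 for Csf2rb (adjusted p 0.0061 to 0.0512) and 1.5 to 1.92 for Csf2rb2 (0.00421 to 0.0501) in depleted cells. With a replicate block, Csf2rb had 1.42 and 1.43 (adjusted p = 0.00916 in depleted and 0.00225 in control cells) and Csf2rb2 1.71 and 1.66 (0.0087 and 0.00136), and the count of genes called over both populations between genotypes was 7, against 11 without the block. Among listed genes the block ended the calls of Fes and Ptprc in depleted cells and gave one to Stat5b in control cells.

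The count of genes called between genotypes in pre-Baso was 8, and became 5 with TPM rescaled to protein-coding genes, 23 without a filter and 41 with the compared groups alone, and 5 to 10 leaving out a library. In basophils it was 7, and became 18 with protein-coding scaling, 16 with a pseudocount of 0.1, 18 without a filter, 4 with the compared groups alone and 15 with assigned bases, and 6 to 19 leaving out a library. Over both populations it was 11, and became 19 with a pseudocount of 0.1, 5 without a filter, 17 with a filter of 5 TPM and 19 with robust moderation, and 7 to 15 leaving out a library. Between populations in depleted cells it was 298 without a filter and 2360 with assigned bases, and 20 to 1367 leaving out a library. In control cells it was 1516 without a filter, and 1397 to 2722 leaving out a library. For the interaction it was 2 with protein-coding scaling, 2 with a pseudocount of 0.1 and 1 with assigned bases, and 0 to 3 leaving out a library. The cause was not tested.

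Signs turned only for differences that were not called. The Il3ra interaction was 0.01 with protein-coding scaling and 0.03 in FPKM, and the Csf2rb interaction 0.02, 0.03 and, with assigned bases, 0.09. With assigned bases the Csf2ra genotype difference was 0.36 in basophils and its interaction 0.13. With median-of-ratios scaling, Cebpb had -0.05 and Gata1 -0.03 between populations in depleted cells. Leaving out a library, Il3ra ranged from -0.02 to 0.08 between genotypes in pre-Baso, -0.19 to 0.24 in basophils, -0.08 to 0.14 over both and -0.22 to 0.21 in the interaction. Csf2ra ranged from -0.33 to 0.8, -0.61 to 0.43, -0.21 to 0.36 and -0.89 to 0.24 in the same comparisons, Csf2rb from -0.45 to 0.05 in pre-Baso and -0.25 to 0.25 in the interaction, and Csf2rb2 from -0.16 to 0.27 in the interaction. Between populations, Cebpb ranged from -0.24 to 0.38, Gata1 from -0.04 to 0.21 and Crlf2 from -0.32 to 0.09 in depleted cells, and Gata1 from -0.07 to 0.34 in control cells. By assigned bases, the share of Csf2rb2 in the beta chains was 25.6% in depleted basophils, 25.8% in control basophils and 21.8% in depleted pre-Baso.

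With 2 libraries a group and no read counts, the intervals rest on the spread between libraries, pooled over the groups and moderated across genes. Low genes such as Csf2ra, Il5ra and the SOCS genes are imprecise. For the called genes of the lists, 887 of 1072 values under an alternative kept the call and 185 did not. The Nfil3 genotype call was lost in pre-Baso with protein-coding scaling (adjusted p = 0.121), a pseudocount of 0.1 (0.175), no filter (0.0564) and assigned bases (0.0584), and in basophils with protein-coding scaling (0.0627) and a pseudocount of 0.1 (0.164), at log2 differences of -4.74 to -2.67 in pre-Baso and -4.21 to -4.04 in basophils.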
